A study of Mus musculus with 12 samples.

Results

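Chemokines and cytokines are the small secreted proteins with which connective tissue cells call in and instruct blood cells. The 10 genes described here were chosen by name, as chemokine and cytokine genes of mesenchymal cells: Ccl2, Ccl7, Ccl5, Cxcl1, Cxcl5, Cxcl10, Cxcl12, Il6, Lif and Csf1. All 10 matched 1 entry each among the 54532 genes of the deposited table, and 9 of them were among the 14424 genes that passed the filter on low counts and were tested. Cxcl12 had no read in any library.

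The libraries came from ATDC5, a wild-type mouse line labelled as cartilage progenitor cells and much used as a culture model of cartilage formation. Cultures kept at 37 °C were exposed for 10 min to 37 °C, to 40 °C or to 44 °C, with no other agent or allele in any group, and polyadenylated RNA was sequenced from 4 replicates per temperature, 12 libraries in all. The 4 replicates are called biological by the submitters, but the cells are 1 line, and p-values measure the spread between these cultures only. How long after the exposure RNA was taken is not stated. Total counts lay between 16269026 and 19506705 per library.

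In mesenchymal cells, most of these ligand genes are switched on by the transcription factor NF-kB, downstream of the receptors for interleukin-1, tumour necrosis factor and microbial products, and C/EBP, AP-1 and interferon regulatory factors act with it on particular genes. CC chemokines such as CCL2 draw monocytes through CCR2, CXC chemokines such as CXCL1 draw neutrophils through CXCR2, and CXCL10 draws T cells through CXCR3. IL-6 and LIF signal through the shared receptor chain gp130, and CSF1 keeps macrophages alive through CSF1R. Many of their mRNAs are short-lived, because AU-rich stretches in the 3′ untranslated region (UTR) are bound by decay factors.

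Promoter sequence was at hand for 6 of the 10 genes: Il6, Cxcl1, Cxcl10, Cxcl12, Lif and Csf1. Each window, from RefSeq on GRCm38.p6 (the assembly of mm10, which the submitters name), ran from 250 bases before the RefSeq start of the gene to 50 after it. A match to the NF-kB consensus, 10 letters searched on both strands, lay in 5 of these 6 windows, all but that of Cxcl12, against 8.18% of the 27025 windows of all genes. The bases ahead of 4 of the genes are shown, since Il6 and Cxcl1 fell at 44 °C while Lif and Cxcl10 were not called, and all 4 carry that match, in capitals.
Il6, chr5:30012864-30013113, plus strand: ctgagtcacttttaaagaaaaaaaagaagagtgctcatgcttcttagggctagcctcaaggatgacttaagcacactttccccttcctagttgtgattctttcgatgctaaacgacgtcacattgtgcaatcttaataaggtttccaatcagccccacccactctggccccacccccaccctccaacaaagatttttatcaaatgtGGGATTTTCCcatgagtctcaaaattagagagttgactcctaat
Cxcl1, chr5:90890995-90891240, plus strand: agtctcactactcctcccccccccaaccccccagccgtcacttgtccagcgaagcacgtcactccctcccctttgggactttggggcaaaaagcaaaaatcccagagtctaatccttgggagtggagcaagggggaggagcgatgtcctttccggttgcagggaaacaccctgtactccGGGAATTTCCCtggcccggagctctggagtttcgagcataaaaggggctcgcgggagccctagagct
Lif, chr11:4257318-4257556, plus strand: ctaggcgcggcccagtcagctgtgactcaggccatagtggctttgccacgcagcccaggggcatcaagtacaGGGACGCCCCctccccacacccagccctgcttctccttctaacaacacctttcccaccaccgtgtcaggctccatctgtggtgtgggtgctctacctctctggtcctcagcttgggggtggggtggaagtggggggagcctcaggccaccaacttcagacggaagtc
Cxcl10, chr5:92348890-92349139, minus strand: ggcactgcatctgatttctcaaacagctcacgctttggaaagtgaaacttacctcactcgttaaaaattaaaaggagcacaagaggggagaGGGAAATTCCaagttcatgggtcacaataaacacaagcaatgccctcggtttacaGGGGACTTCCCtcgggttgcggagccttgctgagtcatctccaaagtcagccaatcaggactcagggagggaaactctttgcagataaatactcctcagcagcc

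The match began 44 bases before the start in Il6, 71 in Cxcl1, 178 in Lif, and 159 and 104 in Cxcl10, and the runs of 11 capitals in Cxcl1 and Cxcl10 are pairs of overlapping matches. Csf1 had its match 154 bases before the start. The AP-1 letters TGANTCA were found in the windows of Il6, Lif and Cxcl10 (7.93% of all windows), the C/EBP letters TTGCNNAA in that of Il6 (10.8%) and the interferon-stimulated response element in that of Cxcl10 (3.49%), both strands searched. None of the 6 windows held the heat shock element core GAANNTTC, which 7.95% of all windows hold. A match is a description of letters and not of binding, and the NF-kB match was present both in genes that fell and in genes that were not called.

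The 3′ UTRs, read from GENCODE M21 transcripts, differed in AU-rich pentamers. Il6 had 6 ATTTA in 427 bases and Cxcl1 had 7 in 592 bases. Among genes with a 3′ UTR within 25% of the same length, 0.462% and 0.48% had as many. Ccl2 (1), Ccl7 (2), Cxcl10 (2) and Csf1 (4) had numbers of ATTTA that 34.9%, 19.7%, 34.8% and 48.5% of genes of like length reached, and Ccl5 had none. Cxcl12 had 3, which 74% of genes of like length reached. Cxcl5 had 5 in 1111 bases (12.7%) and Lif 7 in 3180 bases (38.4%). The longer TTATTTATT, typical of unstable mRNAs, was found in Cxcl1 and Lif alone of the 10 genes, where genes of like length hold it in 3.62% and 14.1% of cases. One such site of each is shown with the 9 letters in capitals, because Cxcl1 was called lower at 44 °C and Lif was not called.
Cxcl1, 3′ UTR bases 102 to 110 in capitals: tttatgtatTTATTTATTccacaaagt
Lif, 3′ UTR bases 2715 to 2723 in capitals: aaggggcctTTATTTATTatttaaaac

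At 37 °C the unheated cells already carried mRNA of 9 of the 10 genes. Levels are compared between genes as CPM (counts scaled to library size, the sizes adjusted by the trimmed mean of M values, TMM) per kilobase of the deposited gene length. Cxcl1, the main mouse neutrophil chemokine, stood highest at 124 ± 14.4 CPM per kb (mean ± SD, n = 4 here and below). The neutrophil chemokine Cxcl5 (30.1 ± 2.58 CPM per kb), the macrophage growth factor Csf1 (26.4 ± 1.15), Il6 (24.6 ± 3.24) and Ccl2 (23.3 ± 3.50) followed, each overlapping its neighbour in this order. Lif lay below them at 11.4 ± 0.675 CPM per kb. Ccl5, a T cell and monocyte chemokine (4.97 ± 0.723 CPM per kb), and Ccl7, a monocyte chemokine (3.69 ± 0.831), overlapped each other and lay above Cxcl10 (1.99 ± 0.478). At 44 °C the order of some means differed: Lif, at 13.6 ± 1.79 CPM per kb, had a higher mean than Ccl2 (11.9 ± 1.72) and Il6 (10.7 ± 2.58), and Cxcl10 (2.62 ± 1.18) a higher mean than Ccl7 (1.53 ± 0.444).

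**Figure D1:**
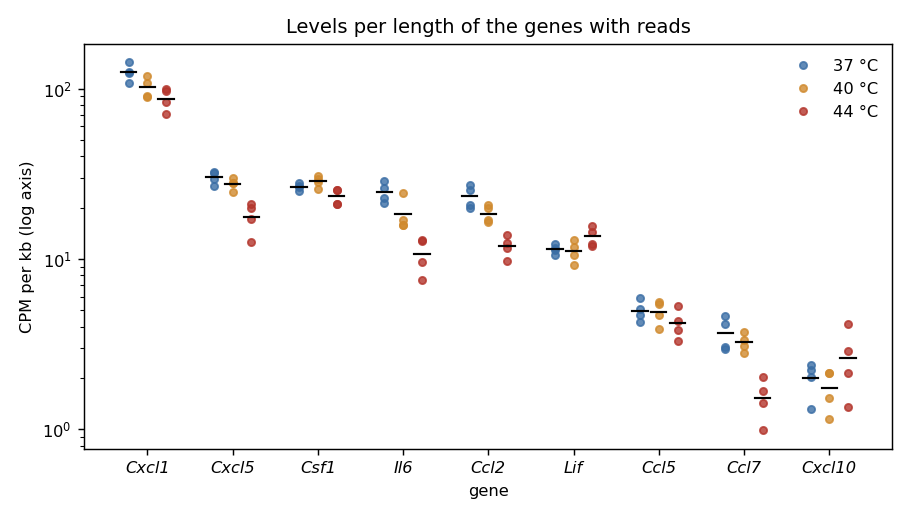
Level per length (CPM per kb, log axis) of the 9 genes with reads, ordered by their mean at 37 °C, with 1 point per library and a black bar for the mean of each temperature. Cxcl1 stands alone at the top, and Il6, Ccl2, Cxcl5 and Ccl7 step down towards 44 °C.

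Cxcl12 encodes a chemokine that stromal cells of bone marrow and many other tissues make in quantity. It had 0 counts in all 12 libraries, which allows up to between 0.154 and 0.184 CPM per library (3 counts, counting error only), so no difference between temperatures could be measured. Whether the cells lack this mRNA or the counting missed it cannot be told from the table, and the limit holds only for reads that were counted for the gene.

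After 10 min at 44 °C, 5 of the 10 genes were lower than at 37 °C and none was higher: Il6, Ccl2, Ccl7, Cxcl5 and Cxcl1. Their decreases lay between 1.42-fold and 2.40-fold, and in each the 4 libraries at 44 °C all lay below the 4 at 37 °C. Across all genes tested, 13.7% were called in this comparison, 7.11% lower and 6.58% higher. Groups that did not overlap were found in 17.8% of all genes tested, 9.13% lower and 8.62% higher at 44 °C. Ccl5, Csf1, Lif and Cxcl10 were not called. The median log2 fold change of the 9 tested genes was −0.51, and that of all genes tested was 0.00. Calls are edgeR quasi-likelihood F-tests, 2-sided, at a Benjamini-Hochberg adjusted p under 0.05 over all genes tested, and log2 fold changes carry their standard error (SE). In bulk RNA, fewer cells that express a gene and less RNA per cell cannot be told apart.

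**Figure D2:**
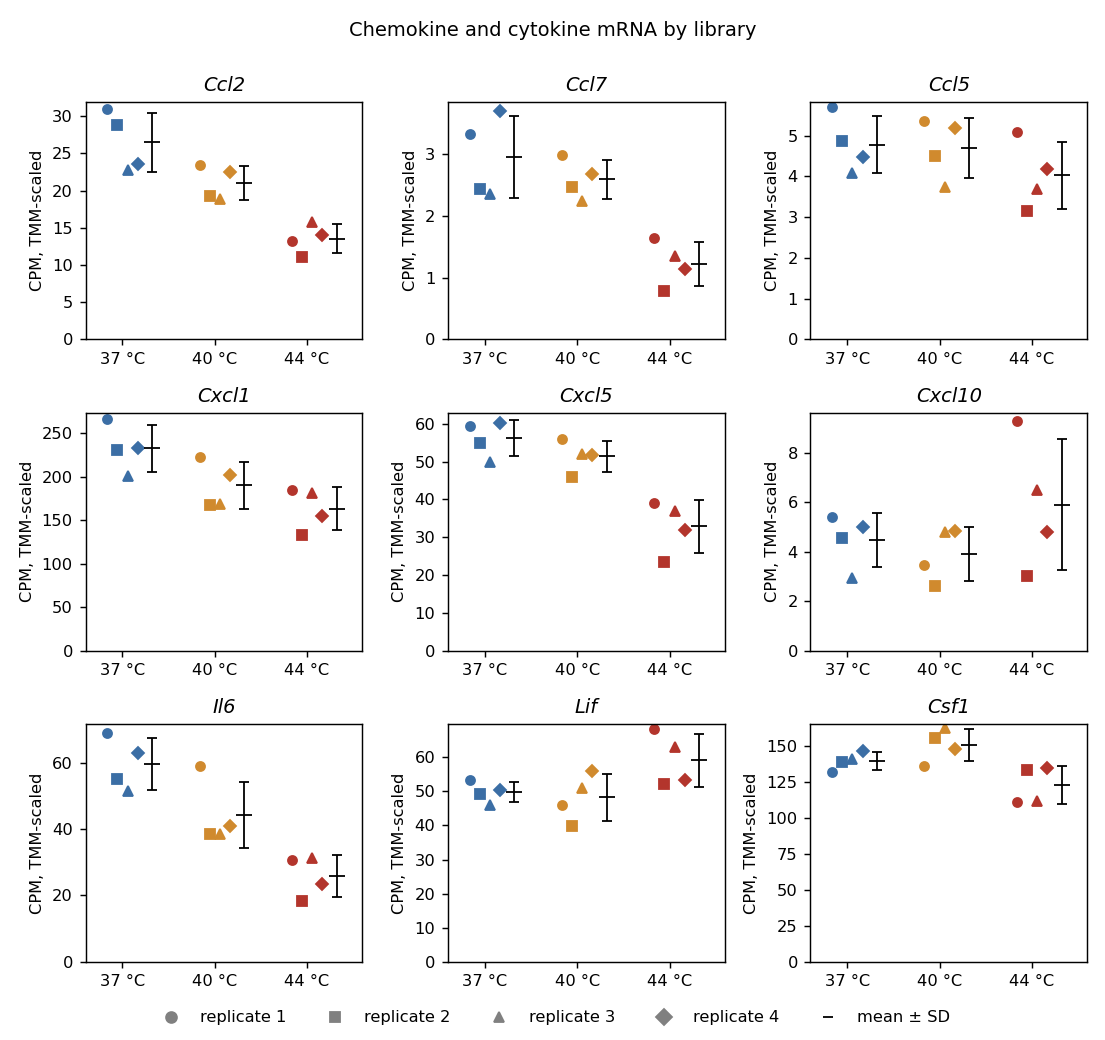
TMM-scaled CPM of the 9 genes with reads in each of the 12 libraries, with 1 marker shape per replicate number and the mean ± SD beside each temperature group. In Ccl2, Ccl7, Cxcl1, Cxcl5 and Il6 the 4 points at 44 °C all lie below the 4 at 37 °C, while the groups overlap in Ccl5, Cxcl10, Lif and Csf1.

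Il6 encodes interleukin-6, an inflammatory cytokine (ENSMUSG00000025746, chromosome 5, 30013114 to 30019981). Its levels at 37 °C were 69.2, 55.3, 51.6 and 63.0 CPM in replicates 1 to 4, at 40 °C 59.2, 38.6, 38.5 and 40.8 CPM, and at 44 °C 30.8, 18.2, 31.3 and 23.4 CPM. The libraries at 44 °C were the lowest 4 of the 12, and at 40 °C replicate 1 lay among the 37 °C libraries while the other 3 lay under them all. Il6 was 2.31-fold lower at 44 °C than at 37 °C (log2 fold change −1.21 ± 0.17, adjusted p = 0.000643).

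Ccl2, which encodes the monocyte chemokine MCP-1 (ENSMUSG00000035385, chromosome 11, 82035571 to 82037453), had 30.9, 28.8, 22.8 and 23.5 CPM at 37 °C. At 40 °C it had 23.4, 19.3, 18.8 and 22.5 CPM, and at 44 °C 13.2, 11.1, 15.7 and 14.1 CPM. All libraries at 44 °C lay below those of both other groups, which overlapped each other. Ccl2 was 1.96-fold lower at 44 °C than at 37 °C (−0.97 ± 0.13, adjusted p = 0.000395).

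Ccl7 encodes a second monocyte chemokine, MCP-3, and lies 8259 bases downstream of Ccl2 (ENSMUSG00000035373, chromosome 11, 82045712 to 82047525). It was a low gene, at 3.33, 2.43, 2.36 and 3.70 CPM at 37 °C, 2.98, 2.47, 2.24 and 2.68 CPM at 40 °C and 1.64, 0.789, 1.35 and 1.14 CPM at 44 °C. Here too the 44 °C libraries lay apart from the other 8. Ccl7 was 2.40-fold lower at 44 °C than at 37 °C (−1.26 ± 0.24, adjusted p = 0.0041). Ccl5, on the same chromosome but in another chemokine cluster (83525778 to 83530518), had 5.70, 4.86, 4.07 and 4.48 CPM at 37 °C, 5.37, 4.5, 3.75 and 5.19 CPM at 40 °C and 5.08, 3.16, 3.69 and 4.17 CPM at 44 °C. Its groups overlapped throughout, and its log2 fold change at 44 °C against 37 °C was −0.25 (95% interval −0.63 to 0.13, adjusted p = 0.37).

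Cxcl5 and Cxcl1 lie 129617 bases apart in the neutrophil chemokine cluster of chromosome 5 (Cxcl5, ENSMUSG00000029371, 90759360 to 90761624, and Cxcl1, ENSMUSG00000029380, 90891241 to 90893115). Cxcl5 had 59.5, 55.0, 49.8 and 60.3 CPM at 37 °C, 56.0, 45.9, 52.0 and 51.8 CPM at 40 °C and 39.1, 23.4, 36.9 and 32.0 CPM at 44 °C, the 44 °C libraries again lowest. It was 1.71-fold lower at 44 °C than at 37 °C (−0.77 ± 0.12, adjusted p = 0.00155). Cxcl1 had 267, 231, 201 and 233 CPM at 37 °C, 223, 168, 168 and 202 CPM at 40 °C and 185, 133, 181 and 155 CPM at 44 °C. Its 40 °C group overlapped both others, and it was 1.42-fold lower at 44 °C than at 37 °C (−0.51 ± 0.12, adjusted p = 0.0114), the smallest of the 5 decreases. Cxcl1 took 40.3% of the summed CPM of the 10 genes at 37 °C. That sum was 577 ± 43.8 CPM in the 37 °C group, 518 ± 34.9 CPM at 40 °C and 429 ± 38.1 CPM at 44 °C. The 40 °C libraries (477 to 556 CPM) overlapped those at 37 °C (521 to 626 CPM), and the sum was not tested. Of the cluster neighbours of Cxcl5 and Cxcl1, Cxcl2, the neutrophil chemokine gene 10756 bases from Cxcl1, also fell (−0.68). Cxcl3 (−0.24, adjusted p = 0.487) and Ppbp (−0.19, adjusted p = 0.815) did not pass the test.

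Cxcl10, the interferon-induced T cell chemokine gene (ENSMUSG00000034855, chromosome 5, 92346638 to 92348889), had no common direction. It had 5.40, 4.55, 2.95 and 5.01 CPM at 37 °C, 3.46, 2.6, 4.79 and 4.85 CPM at 40 °C and 9.29, 3.04, 6.50 and 4.80 CPM at 44 °C. The 44 °C group held both the highest library of all 12 and one at the level of the lowest at 37 °C. Its log2 fold change at 44 °C against 37 °C was 0.40, with a 95% interval from −0.23 to 1.03 (adjusted p = 0.387). Leaving out 44 °C replicate 1 took that value to 0.096 and leaving out replicate 2 took it to 0.61, while it was 0.24 when 37 °C replicate 3 was left out.

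Lif encodes leukaemia inhibitory factor, an IL-6 family cytokine (ENSMUSG00000034394, chromosome 11, 4257557 to 4272514). Its levels were 53.2, 49.2, 46.1 and 50.4 CPM at 37 °C, 46.1, 40.0, 51.0 and 56.0 CPM at 40 °C and 68.3, 52.1, 62.9 and 53.3 CPM at 44 °C. Its log2 fold change at 44 °C against 37 °C was 0.25 (95% interval 0.03 to 0.47), which missed the threshold (adjusted p = 0.119 by edgeR). Lif was thus the 1 gene of the 3 cytokines whose mean was higher at 44 °C, where Il6, which signals through the same gp130 chain, fell.

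Csf1, the macrophage colony-stimulating factor gene (ENSMUSG00000014599, chromosome 3, 107741048 to 107760469), had its highest mean at 40 °C. It had 132, 139, 141 and 147 CPM at 37 °C, 137, 156, 163 and 148 CPM at 40 °C and 111, 133, 112 and 135 CPM at 44 °C. The 44 °C libraries lay below all those at 40 °C but overlapped those at 37 °C. Csf1 fell between 40 °C and 44 °C (−0.30 ± 0.07, adjusted p = 0.0316) and did not pass the test between 37 °C and 44 °C (−0.19, adjusted p = 0.107).

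At 40 °C against 37 °C, none of the 9 tested genes was called, and neither was any of the 14424 genes tested (0% called, edgeR). At an unadjusted p under 0.05 there were 752 genes (5.21% of those tested), and DESeq2 called 4. Ccl2 (log2 fold change −0.34), Il6 (−0.43) and Cxcl1 (−0.29) were among those 752, each with an adjusted p of 0.823 by edgeR. The remaining log2 fold changes were between −0.19 (Ccl7, Cxcl10) and 0.11 (Csf1), and none of the 9 genes had a 40 °C group that lay apart from its 37 °C group. Of all genes tested, 3.83% had such groups, 2.23% lower and 1.61% higher at 40 °C.

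Between 40 °C and 44 °C, 5 of the genes fell: Ccl7 (−1.07 ± 0.24, adjusted p = 0.019), Il6 (−0.77 ± 0.17, 0.0167), Cxcl5 (−0.65 ± 0.12, 0.00733), Ccl2 (−0.64 ± 0.13, 0.00939) and Csf1 (−0.30 ± 0.07, 0.0316). Of all genes tested, 5.02% were called, 3.14% lower and 1.88% higher, and 10.7% had groups that did not overlap, 5.44% lower and 5.28% higher. The step from 40 °C to 44 °C held 5 calls and the step from 37 °C to 40 °C none. The second step is also the wider one in degrees. Whether the fold changes of the 2 steps differed in size was not tested, and the steps share the 40 °C libraries. Cxcl1 had −0.29 for the first step and −0.22 (adjusted p = 0.308) for the second. Without 40 °C replicate 1, and likewise without 40 °C replicate 4 or 44 °C replicate 4, only 3 genes were called between 40 °C and 44 °C. Ccl7 lost its call without 40 °C replicate 1 (adjusted p = 0.0649) or 4 (0.0520) and without 44 °C replicate 2 (0.0615) or 4 (0.0571). Il6 lost its call without 40 °C replicate 1 (0.0592) or 44 °C replicate 4 (0.0544). Csf1 lost its call without 37 °C replicate 2 (0.0514), 40 °C replicate 3 (0.106) or 4 (0.0604), or 44 °C replicate 1 (0.0518) or 3 (0.0945). The calls of Ccl2 and Cxcl5 held without any 1 library. Over the 3 temperatures together, the joint test called Ccl2, Ccl7, Cxcl1, Cxcl5 and Il6 (8.21% of all genes called), with Csf1 at an adjusted p of 0.0508.

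**Figure D3:**
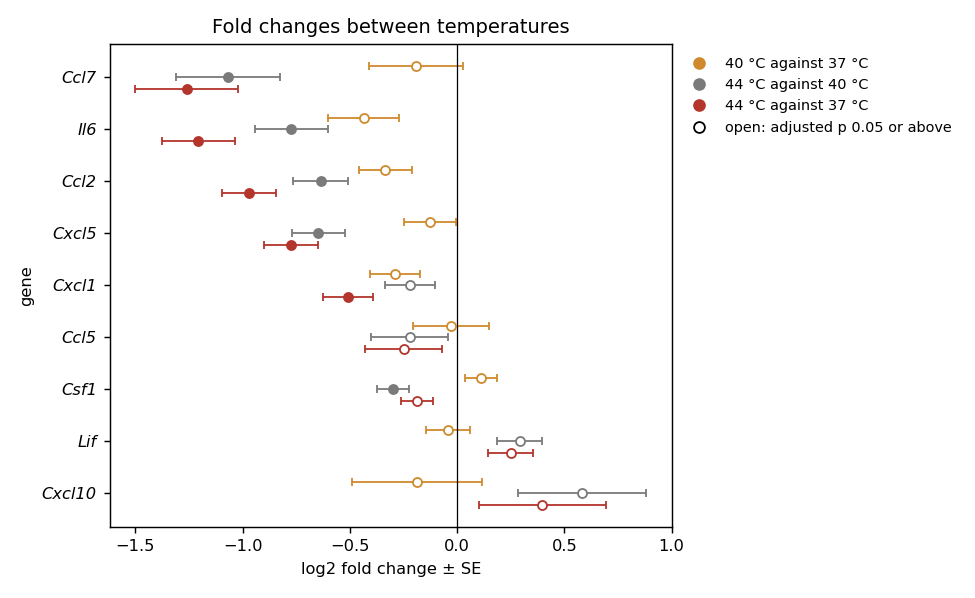
Log2 fold changes with standard errors for the 3 comparisons in the 9 tested genes, from the most negative to the most positive at 44 °C against 37 °C, with filled points for an adjusted p under 0.05. The 40 °C against 37 °C points are all open, and the filled points of Ccl7, Il6, Ccl2 and Cxcl5 lie left of −0.6.

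Libraries of 1 temperature also differed among themselves, and most of the 9 genes moved together there. At 44 °C replicate 2 was the lowest library for 8 of the 9 genes and replicate 1 the highest for 6. At 37 °C replicate 3 was the lowest for 8 and replicate 1 the highest for 6. At 40 °C replicate 1 was the highest for 6, and replicates 2 and 3 were each the lowest for 4. Csf1 was the exception at 44 °C: 133 CPM in replicate 2 against 111 in replicate 1. Within groups, Lif and Cxcl10 thus went down with Il6 and Cxcl5 in 44 °C replicate 2 (Lif 0.17, Cxcl10 0.84, Il6 0.47 and Cxcl5 0.46 log2 units below the mean of the 44 °C group), although between 37 °C and 44 °C only Il6 and Cxcl5 fell.
Some of these libraries also lay apart over the rest of the genes. A first component of the deviations from group means, built without the genes described and the lists below, held 29.7% of the within-group variance and placed replicate 1 of the 37 °C group (−1.13), 40 °C replicate 4 (−1.03) and 44 °C replicate 1 (−1.58) at one end and 40 °C replicate 2 (1.55), 44 °C replicate 2 (1.16) and 44 °C replicate 4 (1.03) at the other. Over the 12 libraries, deviations from the group mean correlated with this component at r = −0.96 for Lif, −0.90 for Cxcl10, −0.67 for Il6 and 0.69 for Csf1 (descriptions, since the points share their libraries). What sets this component was not tested. By its construction this covariate takes out spread within groups and leaves the group means nearly as they were, so p-values with it are smaller and do not count as support. With it, Ccl2 (−0.34, adjusted p = 0.0486), Il6 (−0.43, 0.0242) and Cxcl1 (−0.29, 0.0122) had an adjusted p under 0.05 at 40 °C against 37 °C, and so had Lif at 44 °C against 37 °C (0.24, adjusted p = 0.000418), and Csf1 (−0.19, 0.00487). The covariate raised the number of all genes called from 0 to 590 at 40 °C and from 1975 to 5032 at 44 °C against 37 °C.

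**Figure D4:**
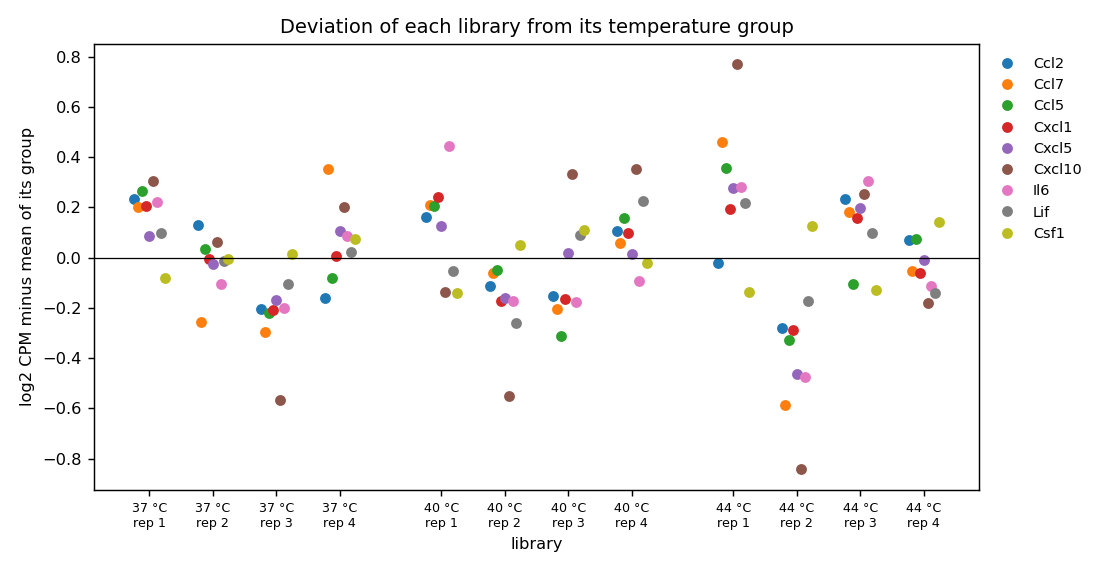
Deviation of each library from the mean of its own temperature group, in log2 CPM, for the 9 genes, 1 colour each. Most points of 44 °C replicate 2 and 37 °C replicate 3 lie below 0 together, and most of 37 °C replicate 1 and 44 °C replicate 1 above it.

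The receptors for these ligands were mostly at the floor. Of 16 receptor genes, Ccr2, Ccr3 and Cxcr1 had no read, and Csf1r had 8 reads and Cxcr2 19 over the 12 libraries together. Only 5 could be tested, of which 3 fell and none rose at 44 °C against 37 °C. Of all genes tested, 7.11% were called lower and 6.58% higher. Il6ra, the IL-6-binding chain, fell from 76.5 ± 2.42 to 53.5 ± 2.03 CPM at 44 °C (−0.52 ± 0.06, adjusted p = 8.29e-05). Il6st, which encodes gp130, fell from 228 ± 5.74 to 197 ± 2.32 CPM (−0.21, adjusted p = 0.00568). Ackr3, the scavenging receptor for CXCL12, fell from 111 ± 6.34 to 88.1 ± 11.4 CPM (−0.33, adjusted p = 0.0375), a call lost without each of 6 libraries (37 °C replicates 1, 2 and 4, 40 °C replicate 1 and 44 °C replicates 2 and 4, adjusted p up to 0.117). Lifr (−0.40, adjusted p = 0.225) and Cxcr3 (−0.12, adjusted p = 0.848) did not pass.

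Among other ligands, none of the 2 CC chemokine genes tested was called (Ccl9 −0.33, adjusted p = 0.262, and Ccl25 0.17, adjusted p = 0.36), and 3 of 5 further chemokine genes fell: Cx3cl1, whose product is tethered to the membrane, from 174 ± 10.6 to 131 ± 17.8 CPM (−0.41, adjusted p = 0.0127), Cxcl16, also membrane-bound (−0.42, 0.0299), and Cxcl2 (−0.68, 0.031). Of all genes tested, 7.11% were called lower and 6.58% higher. The Cxcl16 call was lost without 37 °C replicate 1 or 4 and without 44 °C replicate 2 or 4 (adjusted p up to 0.0903). The Cxcl2 call was lost without 37 °C replicate 1, 2 or 4 or 44 °C replicate 2, 3 or 4 (up to 0.0938), and the count of this list was 1 at the lowest. Of 18 other cytokine genes tested, 3 fell and 1 rose, against 7.11% and 6.58% of all genes tested, with a median of −0.31. Mif, which encodes an abundant inhibitor of macrophage migration (−0.24, adjusted p = 0.00593), Il15, a lymphocyte growth factor (−0.84, 0.0106), and Csf3, the granulocyte growth factor (−0.53, 0.0371), were the lower ones. Csf3 lost its call without 37 °C replicate 1, 2 or 4 or 44 °C replicate 2, 3 or 4 (up to 0.113). Clcf1, another gp130 ligand gene, rose from 104 ± 3.87 to 122 ± 11.8 CPM (0.23, adjusted p = 0.0469), a call lost without each of 9 libraries (all 4 at 37 °C, 40 °C replicates 1, 3 and 4, and 44 °C replicates 2 and 4, adjusted p up to 0.16). Il33, the alarmin cytokine gene, had 195 ± 55.1 CPM at 37 °C and 97.1 ± 50.5 at 44 °C and missed the threshold (−1.004, adjusted p = 0.0585). It passed without 37 °C replicate 3, 40 °C replicate 2 or 44 °C replicate 1 (0.0117 at the lowest), with the replicate number as a block (0.0119), without a filter and with the within-group covariate. Clcf1 and Il33 were chosen after their values were seen. Over leave-one-library-out fits, the number of called cytokines of this list lay between 2 and 8 instead of 4, and it moved by over 1.5 times without 37 °C replicate 1, 2 or 4 or 44 °C replicate 1, 2 or 4.

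Upstream, 6 of 20 inducing receptors and adaptors fell and none rose, with a median log2 fold change of −0.13, where 7.11% of all genes tested were called lower and 6.58% higher. The lower ones included the microbial sensors Tlr2 (22.4 ± 1.43 to 14.0 ± 1.57 CPM, −0.67, adjusted p = 0.00255) and Tlr4 (−0.43, 0.0153, and 0.0535 without 37 °C replicate 2) and the IL-17 receptor chain Il17rc (−0.31, 0.0112). The genes of the receptors for interleukin-1 and tumour necrosis factor, Il1r1 (−0.06, adjusted p = 0.717) and Tnfrsf1a (−0.15, 0.0962), did not pass, and were named after their values were seen. Without 1 of 37 °C replicates 1, 2 and 4 or 44 °C replicate 4, the count fell by over 1.5 times, to 3 at the lowest.
Of 15 NF-kB factor and inhibitor genes, 4 fell and none rose (7.11% and 6.58% of all genes tested), and the median of the list was −0.01. The lower ones were Nfkbiz, a nuclear cofactor needed for Il6 transcription (213 ± 17.5 to 151 ± 18.2 CPM, −0.50, adjusted p = 0.00183), the inhibitor Nfkbia (−0.47, 0.015), the feedback gene Tnip1 (−0.26, 0.017) and Bcl3, a nuclear cofactor (−0.33, 0.0255). The subunit genes Rela (0.10, adjusted p = 0.41) and Nfkb1 (−0.12, 0.0901) did not pass, and these and Bcl3 were named after their values were seen. Nfkbia lost its call without 37 °C replicate 1 (0.0536), and Tnip1 without that library or 44 °C replicate 2 (up to 0.0577), and the count was 1 at the lowest.

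Among 20 other transcription and mRNA decay regulators, 7 fell and none rose, against 7.11% and 6.58% of all genes tested, with a median of −0.16. Cebpd, a C/EBP factor induced by cytokines, fell from 103 ± 8.61 to 65.7 ± 7.24 CPM (−0.65, adjusted p = 0.000522). Irf7, an interferon factor, fell (−1.37, 0.00174), as did the AP-1 gene Junb (−0.29, 0.00245). Zc3h12a, whose product degrades Il6 mRNA, was also lower (48.6 ± 5.87 to 32.4 ± 6.04 CPM, −0.59, adjusted p = 0.00899), while the decay factor gene Zfp36 (−0.17, adjusted p = 0.402) did not pass. These last 2 were named after their values were seen. At 40 °C against 37 °C, no gene of any of the lists was called.

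**Figure D5:**
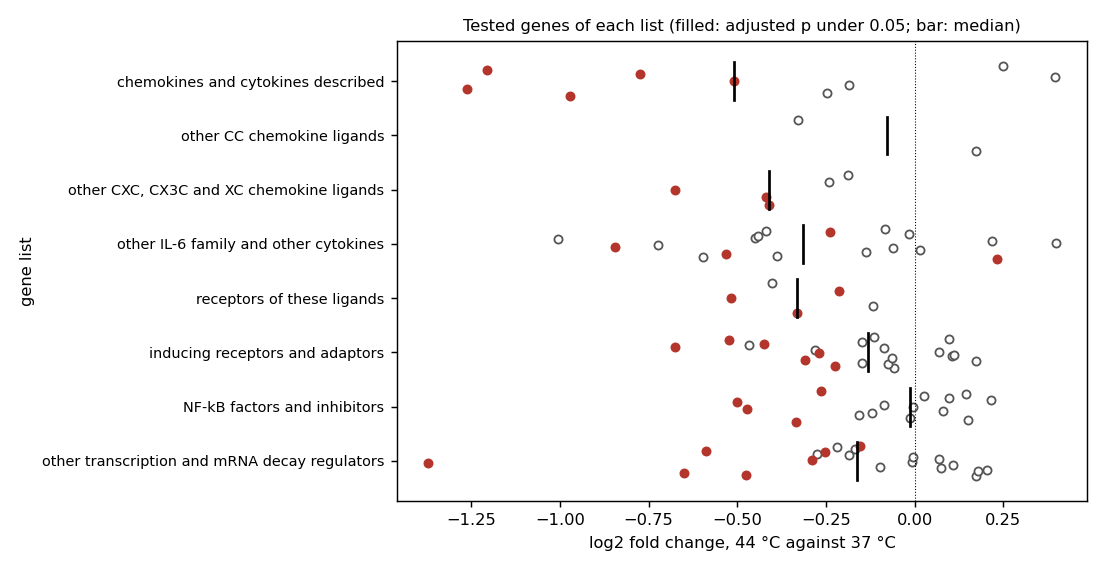
Log2 fold change at 44 °C against 37 °C of each tested gene in 8 lists, with filled red points for an adjusted p under 0.05 and a black bar for the median of the list. Filled points lie to the left of 0 in every list that has them, except 1 point, Clcf1, among the other cytokines.

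Markers of other cells were checked beside these results. Of 12 macrophage and other blood cell genes, Adgre1, Tyrobp and Cd3e had no read in any library and the pan-leukocyte gene Ptprc had 1 read in all 12. The summed CPM of that list ranged from 42.4 to 58.4 in the 37 °C group, from 35.2 to 47.2 in the 40 °C group and from 30.2 to 42.6 in the 44 °C group. It came mostly from Cd68, and 1 of its 3 tested genes fell, Mpeg1 (−1.52). Of all genes tested, 7.11% were called lower and 6.58% higher at 44 °C against 37 °C. The 5 endothelial genes summed to 3.76 to 4.29 CPM in the 37 °C libraries and 5.40 to 7.12 CPM in the 44 °C libraries. Of their 4 tested genes 2 rose, Pecam1 (1.14, adjusted p = 0.0101) and Cdh5 (1.26, 0.0428), both named after their values were seen. Cdh5 lost its call without each of 9 libraries (all 4 at 37 °C, 40 °C replicates 1 and 4 and 44 °C replicates 2, 3 and 4, adjusted p up to 0.152). Cdh5 was also not called by DESeq2, without a filter, with the replicate block or at the threshold of 0.01. The part of these markers in the results was not tested.
Of 12 mesenchymal and chondroprogenitor genes, 9 were tested. Vim (−0.32), Prrx1 (−0.40) and Twist1 (−0.28), named like Mpeg1 after their values were seen, fell at 44 °C, and the other 6 were not called. Of all genes tested, 7.11% were called lower and 6.58% higher. The list summed to 4525 to 4942 CPM in the 37 °C libraries and 3571 to 4087 CPM in the 44 °C libraries. Sox9 stood at 54.2 ± 10.2 CPM at 37 °C, but the cartilage genes Col2a1 (1.21 ± 0.23 CPM) and Acan (2.13 ± 0.42 CPM) were low and Matn1 was at 0, so the cells carried mesenchymal markers and little cartilage matrix mRNA.

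Genes whose log2 CPM was most alike to that of a single gene described here over the 12 libraries were listed among 9942 candidates, as a description only, since all points share their libraries and the temperature groups. For Il6 these were Tcf4 (Pearson r = 0.988), Srpk2 (0.983) and Anxa1 (0.981), and for Ccl2 they were Nqo1 (0.975), Anxa1 (0.964) and Hist1h1c (0.959). Vcam1 (0.981), Prrx1 (0.979) and Parp9 (0.977) were closest to Cxcl5, and Dnm3os (0.973), Nr3c1 (0.972) and Sync (0.965) to Cxcl1. Lif had Gpd2 (0.960), Casp8 (0.953) and Dusp6 (0.952) nearest, Cxcl10 had Lca5 (0.944), Areg (0.927) and Mutyh (0.926), and Csf1 had Suox (0.932), Pcdh18 (0.927) and Itpripl2 (0.911). Anxa1, an annexin gene, was thus near both Il6 and Ccl2.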

How the data were processed

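The authors deposited a table of whole-number counts for each gene and library, without pooling replicates. The build is mm10, and featureCounts 1.5.0-p3, HISAT2 2.0.5, fastp and StringTie 1.3.3b are named, per the submitters' processing notes. Their roles, the strand setting and the treatment of multiply mapped reads are not given in the sources used here. Counts of overlapping or antisense genes therefore cannot be told apart. Among the genes described, Ccl2 lies within the span of Gm17268, which had 0 counts over the 12 libraries. Cxcl10 lies within the span of Art3, which had 19. Only protein-coding genes were searched for such overlaps, so overlapping non-coding genes were not looked for.

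The tests used edgeR 4.0.16 (R 4.3.3). Low genes were removed with filterByExpr (minimum count 10, minimum total 15), library sizes were scaled by TMM, and all 12 libraries entered 1 quasi-likelihood fit with the temperature group as its term. The common biological coefficient of variation was 0.102. Standard errors were derived from the F statistic (log2 fold change over root F), and 95% intervals use the t distribution of the fit. Chi-square statistics per gene between replicates lay between 2.85 and 20.9, above sampling noise in every pair. The code was tested on simulated counts with libraries drawn independently. Those lack the spread that genes share within groups here, so the test does not give the error rate in these data. Alternatives were DESeq2 1.42.0, its size factors, library totals, other filters and thresholds, 2 groups only, a replicate block, a within-group covariate and leaving out each library.

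The genes and lists were chosen with earlier results of these data known. The 7 lists of ligands, receptors and regulators and 3 marker lists held 158 symbols, of which 2 (Ccl19, Ccl27a) were ambiguous and left out. The text names the 10 genes, from the 7 lists of ligands, receptors and regulators the 3 genes each with the smallest p at 44 °C against 37 °C, and the tested receptors. The 3 most alike genes were taken for those of the 10 with at least 5 CPM in a group, leaving out predicted genes and pseudogenes. Other genes were named after their values were seen.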

Additional observations from a re-analysis of the deposited data

Results flagged for a closer look

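Of 27 sets of 4 libraries (9 genes in 3 groups), 1 held a library far from the others of its group, where chance flags about 1 in 20. Il6 in 40 °C replicate 1 had 59.2 CPM, against 40.8 CPM in the next library and 38.5 CPM in the lowest, so the gap took a share of 0.888 of the range of the group. Without that library Il6 at 40 °C against 37 °C went from −0.43 to −0.60 (adjusted p = 0.781), and at 44 °C against 40 °C from −0.77 to −0.60 (adjusted p = 0.0592).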

How the results depend on the processing

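At 44 °C against 37 °C the number of genes called among the 10 was 5 without any 1 library, and the log2 fold changes of Il6, Ccl2, Ccl7 and Cxcl5 stayed past the threshold under all 21 alternatives. Cxcl1 missed the stricter threshold of 0.01 (adjusted p = 0.0114). At 44 °C against 40 °C the count of 5 became 3 with only the 2 groups compared, 2 at the threshold of 0.01 and 8 with the within-group component as a covariate (6 lower, and Lif and Cxcl10 higher at 0.29 and 0.54), and lay between 3 and 5 over leave-one-out fits. At 40 °C against 37 °C the count of 0 became 3 with that covariate and stayed 0 without any 1 library. The joint count of 5 became 6 with library totals, DESeq2 size factors, the DESeq2 test, no filter, the stricter filter or the replicate block. It became 8 with the covariate and 4 at the threshold of 0.01, and lay between 4 and 6 over leave-one-out fits. The covariate removes spread within groups by its construction, and for the other settings the cause was not tested. Signs turned in leave-one-out fits for Ccl5 (−0.0972 to 0.0728) and Lif (−0.12 to 0.0368) at 40 °C against 37 °C and for Cxcr3 (−0.478 to 0.0666) at 44 °C against 37 °C. Among all genes, 1975 calls at 44 °C against 37 °C became between 979 and 3355 without 1 library and 630 at 0.01, and 724 at 44 °C against 40 °C became between 394 and 1265, 1178 with DESeq2, 3216 with the covariate, 334 with 2 groups and 270 at 0.01. The 0 calls at 40 °C against 37 °C became 13 without a filter, 4 with DESeq2, 590 with the covariate and 1 without 44 °C replicate 1. Jointly, 1184 calls became between 562 and 2125 without 1 library, 1994 with DESeq2, 1784 without a filter, 4828 with the covariate and 425 at 0.01. With the replicate block, 5 genes were called at 44 °C against 37 °C, 5 at 44 °C against 40 °C, 0 at 40 °C against 37 °C and 6 jointly. The block also called Il33 at 44 °C against 37 °C (adjusted p = 0.0119), and all-gene calls went from 1975 to 2557 and jointly from 1184 to 1656. Same-numbered libraries deviated together in some pairs only (correlations between −0.21 and 0.37, over 0.1 in 3 of 12 pairs, and 6 of 12 libraries correlated best with their own number), so the numbers were not used as pairs, although the 6 are a hint of pairing from the data, not the design.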
